A study of Mus musculus with 6 samples.

Results

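The replication-dependent histone genes are the multicopy genes that supply the linker histone H1 and the core histones H2A, H2B, H3 and H4 to newly replicated DNA. They were taken by gene symbol from the deposited count table, by a pattern that matches the H1f1 to H1f6, H2ac, H2bc, H3c and H4c names and the older Hist names. The pattern found 39 of the 9295 genes in the table. They are 5 H1, 9 H2A, 9 H2B, 6 H3 and 10 H4 genes. The same pattern finds 64 protein-coding genes in the mouse RefSeq table for GRCm38.p6. Of these, 38 are in the deposited table, and the remaining member, H2bc24, is found in RefSeq by its gene ID under another symbol. RefSeq places 34 members on chromosome 13 and 5 on chromosome 3.

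RNA was measured in 6 bone marrow samples from mice with acute myeloid leukemia. Con is the group of 3 libraries with the genotype PAPOLA flox/flox, in which the gene carries recombination sites, and KO the group of 3 libraries labelled PAPOLA KO. Papola encodes poly(A) polymerase alpha, which tails most messenger RNAs in the nucleus, and the series asks what it does in leukemia. The labels name no Cre driver, leukemia-inducing agent, age, sex or sort of cells. Nor do they tell whether 1 or more mice gave a group's libraries, so the p-values are set against the spread of these libraries, which may be technical. Values by library are given in order of replicate number.

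Replication-dependent histone genes have no introns, and their messenger RNAs are the only known ones in animals that normally lack a poly(A) tail. The 3' end forms by a single cut just after a conserved stem-loop, which is bound by the stem-loop binding protein Slbp and needs no poly(A) polymerase. The genes are transcribed mainly in S phase, and the stem-loop messages are degraded when replication stops. Several of the genes also have a poly(A) signal further downstream, which gives a tailed form of the message that is known from differentiating and resting cells. A library made by selecting poly(A) RNA holds mostly such tailed forms. Whether the BGI dual-mode mRNA kit was used here with poly(A) selection is stated in no source used here.

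The stem-loop is the feature that sets these messages apart, so it is shown for members of each class on which the results turn. All 39 members were matched by gene ID to transcripts of GENCODE release M21 (GRCm38). A stem of 6 paired bases around a loop of 4, opening with GG and closing on the loop with T opposite A, wobble pairs allowed, was found in a transcript of 25 members, against 4.99% of 21901 protein-coding genes. For the other 14, no match says only that such a run is not in the annotated transcript. Each sequence runs 5′ to 3′ in DNA letters, with the 16 bases of the stem-loop in capitals and 5 bases on each side.
H1f2: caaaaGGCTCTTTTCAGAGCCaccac
H1f4: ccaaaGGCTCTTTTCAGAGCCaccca
H2ac23: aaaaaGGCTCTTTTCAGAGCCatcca
H2bc11: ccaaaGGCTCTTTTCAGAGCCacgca
H2bc3: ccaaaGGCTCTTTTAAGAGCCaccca
H3c3: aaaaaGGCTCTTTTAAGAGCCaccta
H4c9: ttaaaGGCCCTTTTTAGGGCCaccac
H4c3: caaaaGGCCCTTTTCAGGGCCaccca
H4c2: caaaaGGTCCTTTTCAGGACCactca
The first of these stem-loops, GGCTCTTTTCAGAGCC, was found in 11 members, namely 3 H1, 4 H2A, 3 H2B genes and H3c1. That exact run of letters occurs in the transcripts of 28 (0.128%) of the protein-coding genes. The H4 genes carried other stems. In 5 of them (H4c3, H4c4, H4c6, H4c17 and H4c18) it was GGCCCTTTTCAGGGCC, in H4c9 and H4c14 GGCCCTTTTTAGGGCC, and in H4c2 and H4c11 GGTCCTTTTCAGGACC.

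Total counts were 11253932 to 11436216 in Con and 8875022 to 9768143 in KO, and levels are CPM, a gene's share of the TMM-scaled total count of its library. Papola itself had 3751, 3779 and 3642 counts in Con and 2928, 2929 and 2440 in KO. Its log2 fold change was 0.22 (SE 0.08, edgeR quasi-likelihood test, adjusted p = 0.0291). It turned to -0.13 when library size alone set the scale (adjusted p = 0.186), and lost its call without any 1 of Con replicates 1 to 3 and KO replicates 1 and 2 (0.0614 to 0.0814). These whole-gene counts therefore do not check the KO label, and directions here rest on the labels alone. Of the 8 listed genes of leukemic and progenitor cells, 6 were in the table, 1 higher and 4 lower in KO, with a summed level of 377.4 to 425.7 CPM in Con and 329.7 to 383.1 CPM in KO. Late neutrophil genes took 0.276% to 0.282% of counts in Con and 14.7% to 16.9% in KO (all 12 listed genes higher), promyelocyte genes 0.0803% to 0.0869% and 0.403% to 0.607% (all 7 listed genes higher), and erythroid genes 0.067% to 0.0823% and 1.53% to 2.19% (11 higher and 1 lower of 12 in the table, 13 listed). Monocyte and macrophage genes took 0.297% to 0.36% in Con and 0.209% to 0.271% in KO (3 higher and 3 lower of 6 in the table, 8 listed), but their summed CPM overlapped, at 2541 to 3241 in Con and 2388 to 3089 in KO. B cell genes took 0.00492% to 0.00891% and 0.00782% to 0.0212% (3 higher of 5 in the table, 9 listed), T and NK cell genes 0.0406% to 0.06% and 0.00668% to 0.00969% (5 higher and 2 lower of 7 listed), and genes of stroma and endothelium 0.0414% to 0.0446% and 0.025% to 0.0443% (4 higher and 1 lower of 5 in the table, 6 listed). Beside these counts, 39.6% of all tested genes were higher and 42.4% lower in KO. No marker in the table was at 0 in all libraries. The part of these cell types in the histone results was not tested. In bulk samples such as these, more cells of a type and more RNA per cell cannot be told apart.

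Histone transcripts had few counts in Con, and their levels were higher in every class in KO. All 39 members together had 77.84, 69.06 and 71.77 CPM in Con and 454.4, 323.7 and 315.9 CPM in KO. The lowest KO library was thus far above the highest Con library, and the sum was 5.00-fold higher in KO (72.9 ± 4.5 against 364.7 ± 77.8 CPM, SD, n = 3 each). The members made up at most 0.00911% of all counts in any Con library and at least 0.0277% in any KO library. Counts here are not corrected for gene length. Sums are given because reads of near-identical copies may be split among them. A count that is not whole was found for 29 of the 39 members (74.4%), against 15.6% of all genes.

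The H1 genes, whose product binds the DNA entering and leaving the nucleosome, held the largest share of member counts in both groups. Their sum was 57.2, 50.12 and 51.17 CPM in the 3 Con libraries and 266.6, 189.5 and 199.1 CPM in the 3 KO libraries, a log2 difference of 2.03 (SE 0.16). For the H2A genes the sum rested on 14.5 to 22.4 counts per Con library. It went from 1.41 ± 0.333 to 17.9 ± 5.66 CPM, a log2 difference of 3.65 (SE 0.33). H2B pairs with H2A in the nucleosome. Its genes summed to 12.5 ± 1.02 CPM in Con and 77.0 ± 21.8 CPM in KO, a log2 difference of 2.59 (SE 0.23).

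H3 and H4 form the tetramer at the core of the nucleosome. The H3 genes gave the lowest sum, 1.13 ± 0.216 CPM in Con and 9.70 ± 1.57 CPM in KO, a log2 difference of 3.11 (SE 0.21). The H4 genes went from 5.01 ± 0.69 to 41.6 ± 10.4 CPM, a log2 difference of 3.03 (SE 0.24). In all 5 classes the 3 KO libraries lay above the 3 Con libraries. With no scaling but library size, which moved the median log2 fold change of all tested genes by -0.355, the differences ran from 1.68 for H1 to 3.30 for H2A. They stayed above 0 under all 3 alternatives to TMM.

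**Figure D1:**
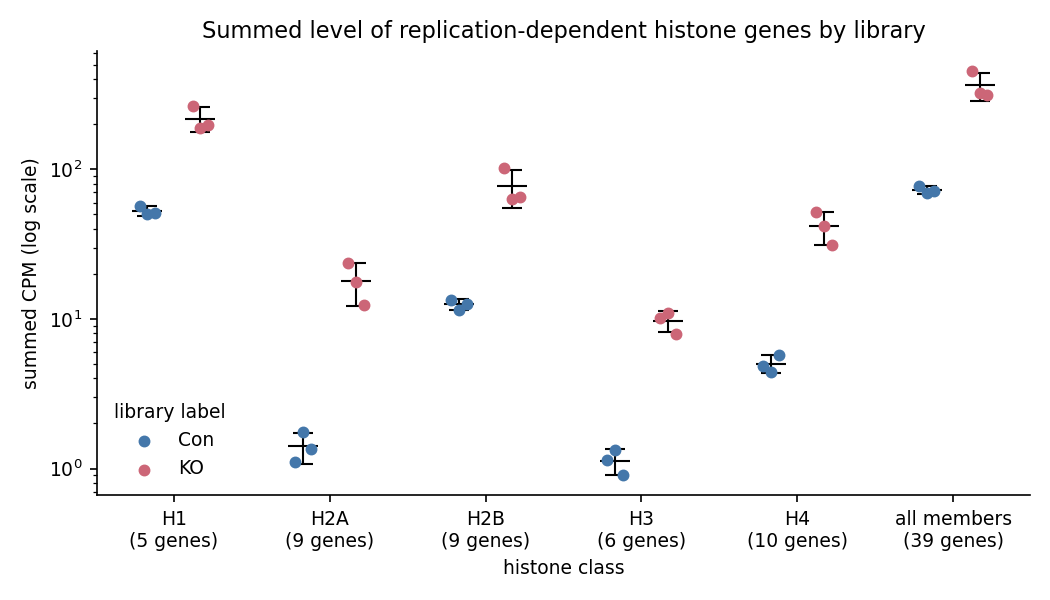
Summed CPM (log scale) of the members of each histone class and of all 39 members, with 1 point per library, and the mean with its standard deviation over the 3 libraries of a group in black. In each class the KO points sit above the Con points, from 7.97 to 11.0 CPM against 0.903 to 1.33 CPM for H3 up to 189.5 to 266.6 CPM against 50.12 to 57.2 CPM for H1.

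Gene by gene, 38 of the 39 members were higher in every KO library than in any Con library, where 39.8% of all genes with any count were. The filter on low counts that precedes the test would bias a count of calls. It kept 25 members, of which 19 reached its level (0.951 CPM before TMM scaling) in no Con library and so were kept through KO alone. The counts of calls therefore come from a fit with no filter, which tested all 39 members among 9240 genes. In it 38 members rose (edgeR quasi-likelihood test, adjusted p of 0.05 or less), where 38.3% of all genes did. The remaining one was H2ac10, with 1.15, 2.62 and 1 counts in Con and 1.16, 4.02 and 2.25 in KO (log2 fold change 1.06, adjusted p = 0.257, or 0.45 without KO replicate 2 and 1.70 without Con replicate 2). The call of H2ac13 (adjusted p = 0.0365) was lost without any 1 of Con replicates 1 and 3 and KO replicates 1 and 2 (0.0534 to 0.174) and with library size alone as the scale (0.0679), and that of H3c7 (0.0147) without Con replicate 2 (0.0617).

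The median log2 fold change of the 39 members was 3.92, or 3.90 with the members that had no Con count at their lower bound, beside -0.03 for all genes in the same fit. At least 8-fold higher levels were fitted for 24 members, against 7.87% of all genes. Members on both chromosomes showed them, with a median of 3.93 on chromosome 13 (33 of 34 above every Con library) and 3.92 on chromosome 3 (5 of 5). Most single values rest on few counts in Con, since 26 members had under 10 counts over the 3 Con libraries together and 5 had at least 10 in every library.

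**Figure D2:**
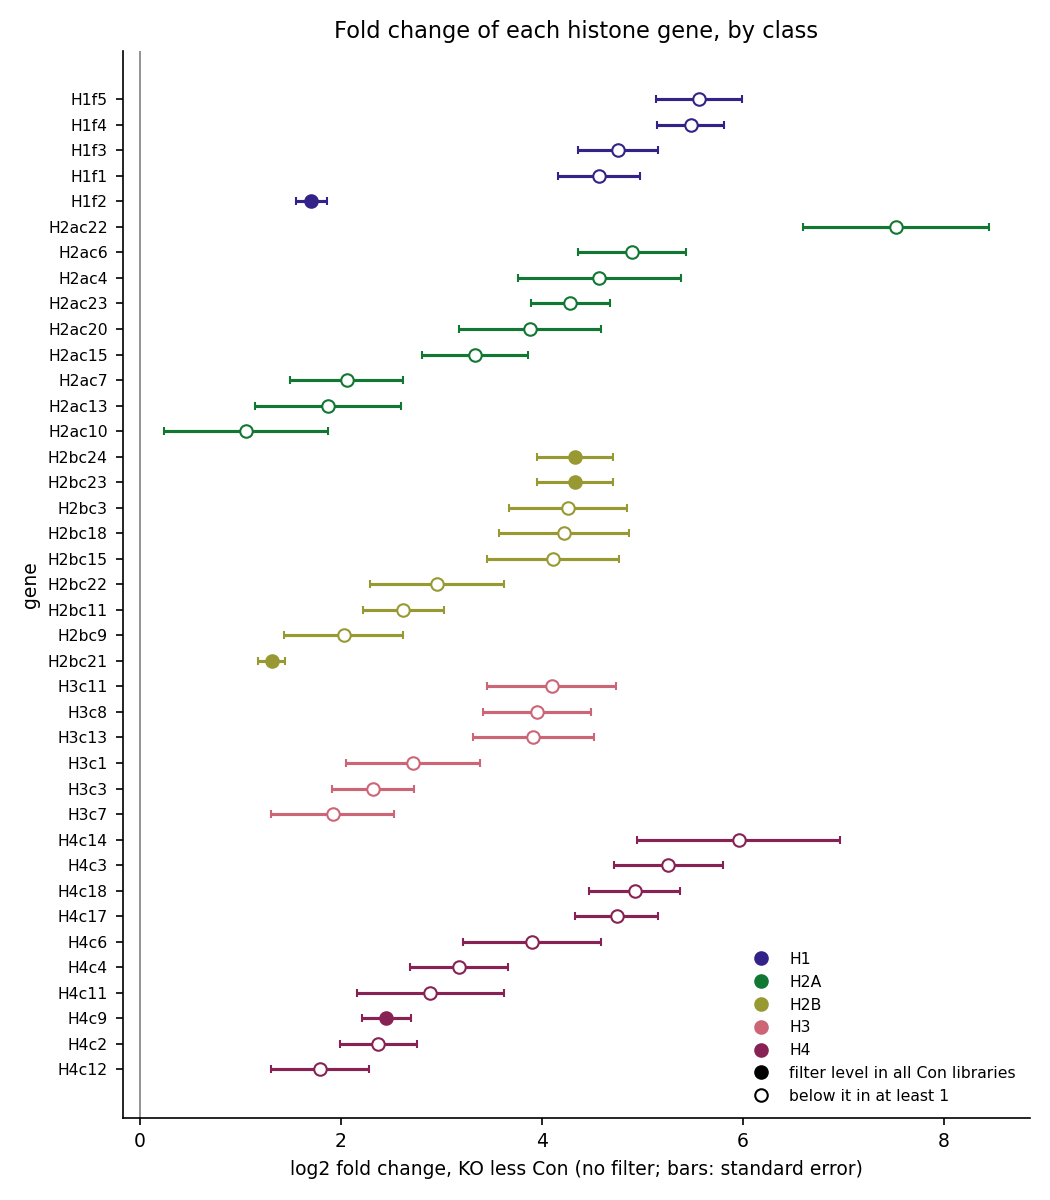
Log2 fold change of each of the 39 genes (KO less Con, fit with no filter, bars are standard errors), ordered within class. Filled points are the 5 genes that reached the filter level in all 3 Con libraries, and H2bc21 (1.31) and H1f2 (1.71) are the lowest of them, while the values of H2ac22 and H4c14, with no count in Con, depend on the prior count of the fit.

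Among the H1 genes, 1 gene held most counts in Con and the other 4 had at most 21 counts over its 3 libraries. H1f2 (gene ID 50708), a linker histone made in most somatic cells, had 734, 623 and 627 counts in Con and 1810, 1103 and 1262 in KO. Its level went from 51.5 ± 3.54 to 169.9 ± 38.3 CPM (1.72 on the log2 scale, SE 0.15, adjusted p = 5.49e-06 in the fit with the filter). H1f2 alone gave 70.7% of all member counts in Con and 46.5% in KO. H1f4 (50709) had 8, 6 and 1 counts in Con and 176, 142 and 126 in KO, 0.386 ± 0.273 against 18.1 ± 2.23 CPM. The pooled counts put it 46.6-fold higher (95% counting interval 27.9 to 83.9). H1f5 (56702), a linker histone of dividing cells, had 1, 2 and 6 counts in Con and 100, 122 and 67 in KO, which is 50.5-fold (26.2 to 112). Its fitted log2 fold change with no filter was 5.57, and 6.50 without Con replicate 3. H1f3 had 21 counts over Con and 376 over KO, and H1f1 had 5 and 83. Without H1f2 the class went from 1.29 ± 0.329 to 48.5 ± 10.2 CPM, a log2 difference of 5.23 in place of 2.03. These intervals, here and for other members, come from counts pooled over the libraries of each group and hold counting error alone. They leave out the spread between libraries. They also take each count as a separate molecule, though PCR copies cannot be told apart from separate molecules.

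The H2A genes encode near-identical proteins, and each had at most 13 counts over the Con group. H2ac23 (665433), the most counted, had 3.43, 4.39 and 5.37 counts in Con and 70.54, 53.46 and 32.62 in KO, 0.345 ± 0.0848 against 6.34 ± 2.03 CPM. H2ac22 had no count in Con and 28.26, 14.33 and 12.43 in KO, so it was at least 28.8-fold higher against a floor of 3 counts over the Con group. H2ac6 had 3 counts over Con and 66 over KO, a 34.6-fold ratio (11.3 to 172), and its fitted log2 fold change went from 4.90 to 5.70 without Con replicate 3. H2ac15 had 8 and 55 counts, and H2ac7 13 and 36 (4.36-fold, 2.26 to 8.95), with a fitted 2.06 that went to 1.43 without KO replicate 1. H2ac20 and H2ac4 had 2 and 1 counts over Con and 23 and 22 over KO, and H2ac13 had 9 and 22.

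H2B counts came mostly from 3 genes. H2bc21 (319190), which makes a core histone of the H2B class, had 135, 107 and 119 counts in Con and 207, 202 and 168 in KO. It went from 9.38 ± 0.916 to 23.6 ± 1.73 CPM (1.33 on the log2 scale, SE 0.13, adjusted p = 1.01e-05), the smallest among the members that passed the filter. H2bc23 (665596) and H2bc24 (665622) carry equal counts in all 6 libraries, 14, 14.3 and 12.95 in Con and 286.32, 112.58 and 143 in KO, so they are one quantity divided equally between 2 entries. Their sum went from 2.15 ± 0.0908 to 43.8 ± 20.5 CPM, and each was 4.35 higher on the log2 scale (SE 0.38, adjusted p = 5.31e-06). KO replicate 1 stood above the other KO libraries for this pair, with 66.9 CPM against 27.8 and 36.8 CPM. H2bc11 had 20 counts over Con and 81 over KO (6.37-fold, 3.87 to 11.0). The 5 other H2B genes had 2 to 5 counts over Con and 14 to 55 over KO.

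The H3 genes were the least counted, with 3 to 22 counts each over Con and 13 to 72 over KO. H3c3 (319148) had 9, 9 and 3.57 counts in Con and 25.01, 32.4 and 15.03 in KO (2.32 on the log2 scale in the fit with no filter, SE 0.41, adjusted p = 0.000383). H3c8 had 1.19, 1 and 1 counts in Con and 10.01, 9.9 and 14 in KO, and was 17.8-fold higher (5.61 to 90.7). H3c11 and H3c13 were 19.3-fold (7.06 to 73.5) and 16.9-fold higher (6.14 to 64.9). Each leaned on 1 Con library, since the fitted log2 fold change of H3c11 went from 4.10 to 5.27 without Con replicate 3 and that of H3c13 from 3.92 to 5.05 without Con replicate 1. H3c1 and H3c7 did not reach the filter level in enough libraries and had 6 and 5 counts over Con and 27 and 13 over KO.

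Among the 10 H4 genes, all of which encode the same class of core histone, H4c9 stood out in Con. H4c9 (319158) had 47, 38 and 53 counts in Con and 226.88, 146.76 and 116.64 in KO. It went from 3.59 ± 0.627 to 19.9 ± 5.95 CPM (2.47 on the log2 scale, SE 0.24, adjusted p = 9.31e-06). H4c17 and H4c18, which carry the same stem-loop, had 6 counts each over Con and 129 and 126 over KO, and were 33.8-fold (15.1 to 93.8) and 33.0-fold higher (14.8 to 91.7). H4c3 had 1, 2 and 0 counts in Con and 34.5, 31.14 and 20.13 in KO (45.1-fold, 14.9 to 223), and a fitted 5.26 that went to 6.05 without Con replicate 2. H4c2 and H4c4 had 14 and 8 counts over Con and 49 each over KO. H4c14 had no count in Con and 8, 5 and 5 in KO, at least 9.44-fold higher against the floor. The smallest ratio was that of H4c12, with 10 counts over Con and 23 over KO (3.62-fold, 1.66 to 8.51).

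The split between the few genes counted in Con and the rest was then set beside the annotated 3' ends. This grouping uses the sequence alone but was chosen after the values were seen, so it is given as a description. A poly(A) signal (AATAAA or ATTAAA) lies 10 to 50 bases before an annotated transcript end in 8 members (20.5%), against 77.4% of protein-coding genes. The 8 are H1f2, H2bc21, H2bc22, H2bc23, H2bc24, H4c9, H4c11 and H4c14. For the other 31, no match says only that no such signal lies near an annotated end. Some annotated transcripts are short (393 bases for H2ac15 and H2ac22, 312 for H4c12) and may stop before such a signal. How far the split follows the completeness of the annotation was not tested. In H1f2 the annotated transcript runs on for 840 bases after the stem-loop and the signal starts 26 bases before its end, and in H4c9 for 330 bases with the signal 21 bases before the end. A long annotated stretch alone did not mark the set, since the transcripts of H1f3, H1f4, H2ac6 and H2bc9 run on for 4884, 1153, 2010 and 1214 bases with no such signal near the end. H4c14, which has the signal and 1257 bases after the stem-loop, had no count in Con. In H2bc22 the signal and the stem-loop lie in different annotated transcripts. H2bc21, H2bc23 and H2bc24 have the signal but no stem-loop match.

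These 8 members held 92.1%, 90.9% and 92.2% of member counts in Con and 73.1%, 64.7% and 75.1% in KO. Their sum was 66.9 ± 4.5 CPM in Con and 259.5 ± 64.3 CPM in KO, 3.88-fold higher. The other 31 members went from 6.03 ± 0.392 to 105.2 ± 23.2 CPM, 17.5-fold higher. The gap between the sets was smaller when H1f2 was left out of the first (5.85-fold) and the H1 genes out of the second (12.0-fold). With no filter, the fitted log2 fold changes of the 8 ran from 1.31 to 5.96 (median 2.92). Those of the other 31 ran from 1.06 to 7.52 (median 3.95), so the sets overlapped gene by gene. The 8 were not alike, since H2bc23 and H2bc24 had a pooled ratio of 20.8 (15.1 to 29.3) and H2bc21 one of 2.51 (2.20 to 2.88).

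**Figure D3:**
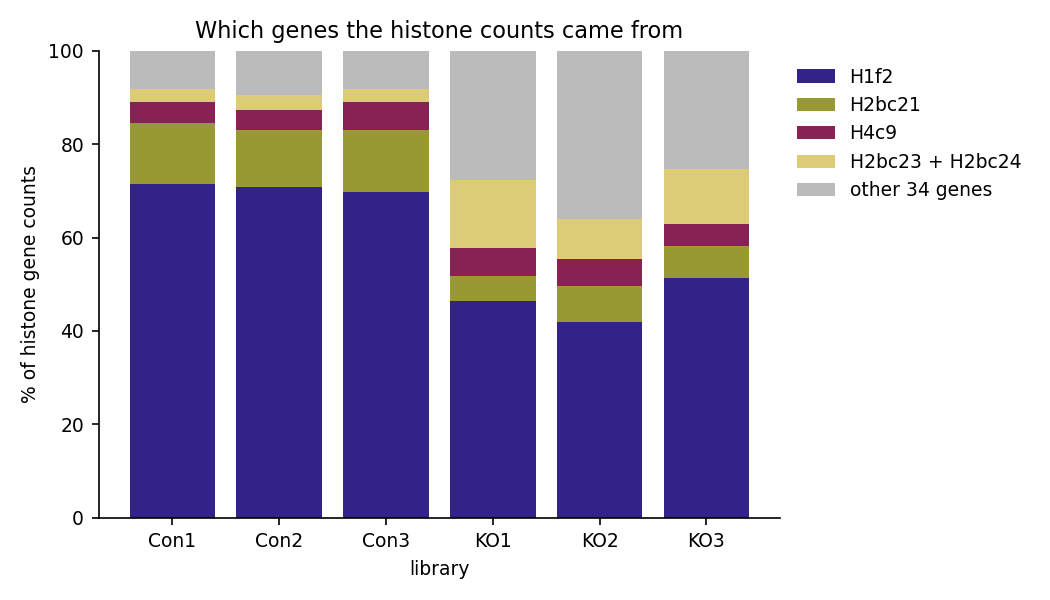
Share of all counts of the 39 histone genes, in % per library, that came from H1f2, H2bc21, H4c9, the pair H2bc23 and H2bc24, and the other 34 genes. H1f2 gives 70.7% of the pooled Con counts and 46.5% of the pooled KO counts, and the grey part, the other 34 genes, is larger in each KO library.

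Other genes of histone supply were described as lists. A list of 23 factors covered histone messenger RNA 3' end formation and turnover, with Npat of histone gene transcription among them. Of these, 12 were in the table and tested, and 5 rose and 2 fell (39.6% of all tested genes rose and 42.4% fell). Their median was 0.13 on the log2 scale beside -0.06 for all tested genes. Slbp (20492) had 114.2, 99.9 and 103.0 CPM in Con and 271.8, 304.4 and 282.8 CPM in KO (1.44 on the log2 scale, SE 0.09, adjusted p = 3.69e-07). Lsm4, a subunit of the ring that starts decay of messenger RNA, rose by 1.03 (SE 0.09), and the Sm protein genes Snrpe and Snrpb rose by 0.87 and 0.81. The fifth that rose was Snrpd3 (0.35), whose call was lost without Con replicate 2 or KO replicate 2 (0.0547 and 0.0513) and with library size alone as the scale (-0.0051). Npat, the coactivator of histone gene transcription, fell from 47.3 ± 1.74 to 34.0 ± 0.661 CPM (-0.48, SE 0.08, adjusted p = 0.000491), and Cpsf2, of the cleavage complex, by 0.27. Eri1, an exonuclease that trims the histone stem-loop end, was at 0.14 (adjusted p = 0.12). It was -0.22 (0.0333) with library size alone as the scale, and was called higher with median-of-ratios scaling (0.19, 0.0413) and with DESeq2 (0.19, 0.0471).

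Histone variants listed as replication-independent split. Of 24 listed names, older synonyms included, 7 were in the table and 6 were tested, and 3 rose and 3 fell (median 0.04). Over all tested genes 39.6% rose and 42.4% fell. H2ax, whose product marks DNA breaks and whose gene gives both stem-loop and tailed messages, rose from 46.2 ± 5.85 to 209.7 ± 15.7 CPM (2.18, SE 0.11, adjusted p = 1.22e-07). H2aj rose by 1.25 (SE 0.11), and Cenpa, the H3 variant of centromeres, by 0.91 (SE 0.09). H1f0, the linker histone of differentiated and resting cells, fell from 222.3 ± 34.9 to 96.5 ± 15.4 CPM (-1.20, SE 0.14, adjusted p = 3.33e-05). Macroh2a2 and H1f10 fell by 1.12 and 0.84 from 3.21 and 2.42 CPM, and the call of Macroh2a2 was lost without Con replicate 1 or 2 or KO replicate 1 or 3 (adjusted p 0.0626 to 0.0697). That of H1f10 was lost without Con replicate 2 or 3 or KO replicate 1 or 3 (0.0723 to 0.219), with DESeq2 (0.118) and in 3 other alternatives.

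Of 20 listed histone chaperones, 11 were tested, and 3 rose and 3 fell (median 0.03). Over all tested genes the shares were 39.6% and 42.4%. Asf1b, which hands new H3 and H4 to replicating chromatin, rose by 0.96 (SE 0.10), Asf1a by 0.56 (SE 0.10) and Hjurp, the chaperone of Cenpa, by 0.48. Ipo4, an importer of H3 and H4 into the nucleus, fell by 1.11 (SE 0.11), Chaf1b, of the chromatin assembly factor, by 0.46 (SE 0.09) and Rbbp7 by 0.30. When library size alone set the scale, 1 rose and 6 fell (29.8% and 53.6% of all tested genes).

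Of 30 listed genes of S phase and DNA replication, 15 were tested, and 12 rose and 2 fell (median 0.75). Over all tested genes the shares were 39.6% and 42.4%. Rpa2, of the single-strand binding protein, rose by 1.08 (SE 0.08), Tk1, thymidine kinase, by 1.05 (SE 0.08), Gins1 by 0.98 and the helicase gene Mcm5 by 0.96. Pole, of the leading-strand polymerase, fell by 0.59. The call of Gins2, which fell by 0.25, was lost with each library left out in turn (adjusted p 0.0501 to 0.211), with median-of-ratios scaling, with DESeq2 and in other alternatives. The sum of these 15 genes serves as a measure within each library that needs no scaling. Per 100 counts of them, the histone members had 4.74, 4.72 and 4.77 counts in Con and 17.6, 12.8 and 12.5 in KO. The ratio was nearly the same in the 3 Con libraries and 3.02-fold higher in KO (4.74 ± 0.0228 against 14.3 ± 2.87, SD, n = 3 each). Without H1f2 it was 5.50-fold higher (1.39 ± 0.0428 against 7.65 ± 1.69). Member counts were 879 to 1028 per Con library, and fewer without H1f2, so both Con SDs are below counting error.

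**Figure D4:**
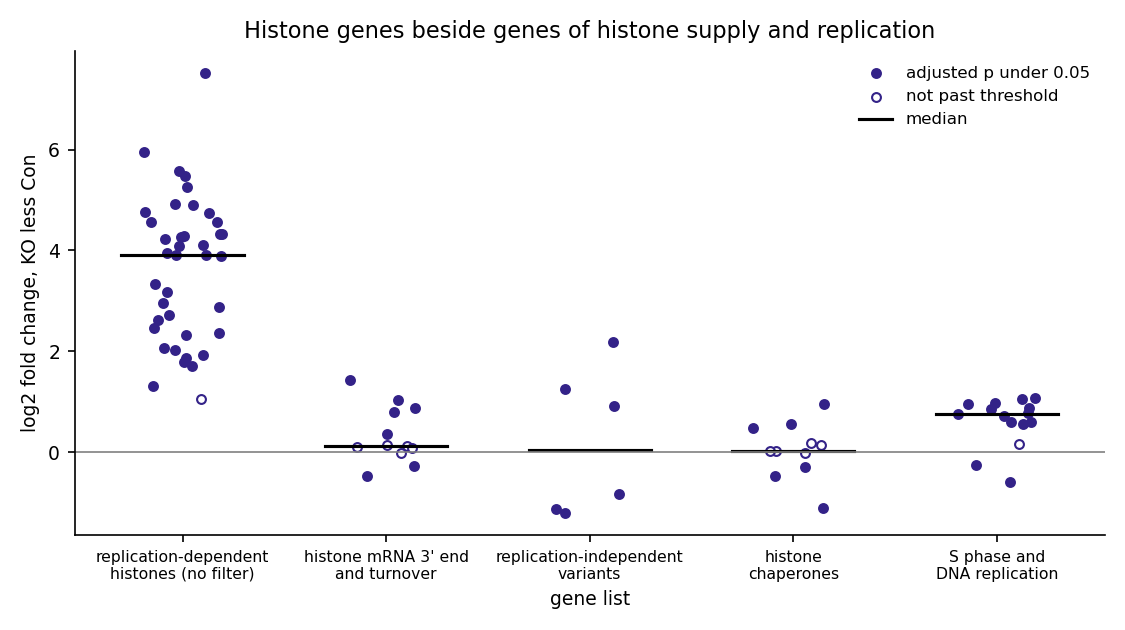
Log2 fold change (KO less Con) of each gene in 5 lists, as filled points where the adjusted p is under 0.05 and open points otherwise, with the median as a line. The histone members have a median of 3.92 in the fit with no filter, and the 15 S phase genes one of 0.75 in the fit with the filter.

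Promoters are shown for 2 H1 genes with shared elements and different fold changes, and for 1 H2B gene with the octamer. RefSeq promoters (GRCm38.p6, 250 bases before to 50 after the start) were found for 35 members. H2bc21, H3c1, H3c7 and H4c14 had none. The letters searched on both strands included TATAAA, a spelling of the TATA box, and CCAAT. A search was also made for the AC box of H1 genes, spelled AAACACA. The octamer known from H2B genes was spelled ATTTGCAT. No matches overlapped one another in these promoters. Each sequence gives the 250 bases before the start, 5′ to 3′ on the gene's strand, with these motifs in capitals.
H1f2 (chr13:23738557-23738806, + strand): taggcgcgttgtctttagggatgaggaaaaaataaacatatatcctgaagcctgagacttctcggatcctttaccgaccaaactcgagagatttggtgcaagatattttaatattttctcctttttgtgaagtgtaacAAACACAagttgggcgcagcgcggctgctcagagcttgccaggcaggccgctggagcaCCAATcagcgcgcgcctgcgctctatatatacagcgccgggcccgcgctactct
H1f4 (chr13:23622559-23622808, - strand): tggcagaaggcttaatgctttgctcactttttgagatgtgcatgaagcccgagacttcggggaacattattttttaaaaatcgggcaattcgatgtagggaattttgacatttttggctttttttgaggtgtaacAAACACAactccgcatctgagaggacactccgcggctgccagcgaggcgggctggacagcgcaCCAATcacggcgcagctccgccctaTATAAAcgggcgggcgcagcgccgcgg
H2bc3 (chr13:23746484-23746733, + strand): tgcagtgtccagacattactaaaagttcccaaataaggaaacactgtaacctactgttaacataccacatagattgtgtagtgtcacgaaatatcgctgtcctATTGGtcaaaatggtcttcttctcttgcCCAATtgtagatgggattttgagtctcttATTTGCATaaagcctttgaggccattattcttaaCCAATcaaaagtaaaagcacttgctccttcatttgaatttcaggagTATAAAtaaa
CCAAT was found in 28 of the 35 promoters, in every H1, H2A, H2B and H3 promoter and in 2 of 9 H4 promoters, against 37.9% of 27025 promoters in the table. TATAAA was found in 21 of the 35, against 14.2% of all promoters. These counts take a match on either strand at any distance from the start. Some promoters hold the same DNA (H2bc23 and H2bc24) or overlapping DNA (H2ac15 and H2bc15), and each was counted. The AC box was found in 4 of 5 H1 promoters and in H2ac4, against 7.14% of all. The octamer was found in 5 members (H2ac4, H2ac6, H2ac20, H2bc3 and H2bc18), against 1.75% of all. H1f2 and H1f4 share the AC box and CCAAT, with the exact letters TATAAA in H1f4 alone. H1f2 has the run tatatata after its CCAAT, and other spellings of the TATA box were not searched. The 2 genes had log2 fold changes of 1.71 and 5.48 (SE 0.15 and 0.34) in the fit with no filter. A link of these letters to the fold changes was not tested.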

How the data were processed

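Counts of reads per gene were compared in 6 bone marrow libraries, 3 labelled Con and 3 labelled KO. The authors deposited 1 table of estimated counts, not scaled, with 1 column per library, per the file headers, and 0 columns were left unused. No source used here gives the aligner or counter. GRCh38, a human build, is named in the submitters' processing notes, yet the genes are mouse genes. The table holds no coordinates, and those printed are RefSeq's (GRCm38.p6). Counts were rounded for tests only.

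Tests used R 4.3.3 and edgeR 4.0.16 (TMM factors 0.8758 to 1.17, filterByExpr, robust quasi-likelihood, two-sided, no covariate), with Benjamini-Hochberg adjustment over all 8358 genes kept, or 9240 with no filter, and a threshold of 0.05. A standard error is the fold change divided by the square root of F. The test with the filter was checked on simulated counts, and the fit with no filter was not. Class sums use all rows, unrounded, with no test. At these totals a gene at 1 CPM rests on about 10 counts per library, the minimum count of the filter, so lower values are imprecise.

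The members and gene lists were chosen with earlier results of these data known. Any member may be named, and of each list the 4 genes of smallest adjusted p past the threshold and factors specific to histone messages. Lists covered histone message 3' ends, variants, chaperones, S phase and 8 sets of cell type markers. Snrpd3, Cpsf2, Macroh2a2, H1f10, Hjurp, Rbbp7, Pole and Gins2 fall outside this rule and were chosen after their values were seen, as was the split by 3' ends. Con replicates 2 and 3 stood closer together than any other pair of one group (chi-square over its degrees of freedom 1.68, elsewhere 17.7 to 23.7) but still differed by more than counting noise, and were kept as 2 samples. Alternatives were DESeq2 1.42.0, limma-voom (limma 3.58.1), 3 scalings, 2 filters, a replicate block, each library left out, and those replicates summed.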

Additional observations from a re-analysis of the deposited data

How the results depend on the processing

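The number of members called higher was 25 with the filter and 38 with no filter, since the filter left 14 members out. For the 5 members at the filter level in every Con library, all 75 values under the alternatives kept direction and call (log2 fold changes 0.97 to 4.59). Of 429 values for all 39 members in alternatives with no filter, chosen after seeing the data, 6 no longer passed (H2ac13 and H3c7), and none changed sign. Leaving out 1 library moved the fitted fold by over 1.5 times in 11 members, each with at most 13 counts over Con. The log2 differences of class sums moved by more than the replicate spread with library size as the only scaling, to 1.68 for H1, 2.23 for H2B, 2.75 for H3, 2.68 for H4 and 1.95 for all members, under which the median of all genes moved by -0.36. Without the most abundant member of each sum they were 5.23 for H1, 4.03 for H2B, 3.58 for H3, 3.92 for H4 and 3.17 for all members, and the H2A sum moved by less than the spread in both. Leaving out 1 replicate moved none of these sums by more than the spread. With library size only, 5 genes of the list for histone message ends fell in place of 2. Of the chaperones 1 rose in place of 3 and 6 fell in place of 3. Papola (-0.13), Eri1 (-0.22) and Snrpd3 (-0.0051) turned in sign under it. The falls among variants were 1 to 3 when 1 replicate was left out. Of S phase genes 1 fell in place of 2, Gins2 being lost, with median-of-ratios scaling, with DESeq2, with Con replicates 2 and 3 summed, and in each fit with 1 replicate left out. Same-numbered libraries did not deviate together (correlations 0.0183, 0.0284 and 0.000446). This gives no sign of pairing by number, but with 3 libraries per group it cannot exclude pairing. With the replicate number as a block 25 members were higher, or 38 with no filter, and 1 S phase gene fell. The causes of these moves were not tested. Low counts in Con limit the precision of single members.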

Other observations

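The KO libraries differed among themselves in histone level. The members other than H1f2 summed to 243, 187.7 and 153.5 CPM in KO replicates 1, 2 and 3. Of these sums, H2bc23 and H2bc24 together gave 66.9, 27.8 and 36.8 CPM. The 15 S phase genes summed to 2579, 2520 and 2529 CPM in the same libraries. Promyelocyte genes summed to 6922, 6360 and 4598 CPM there, and erythroid genes to 17490, 24340 and 24560 CPM. Late neutrophil genes were at 193000, 172800 and 168000 CPM, and monocyte and macrophage genes at 2388, 2907 and 3089 CPM. B cell genes were at 89.25, 220.3 and 241.7 CPM, and T and NK cell genes at 76.28, 86.82 and 110.6 CPM. Genes of stroma and endothelium were at 305.4, 491.6 and 285.3 CPM, and those of leukemic and progenitor cells at 329.7, 339.6 and 383.1 CPM. In Con the members other than H1f2 summed to 22.2, 20.11 and 21.6 CPM. With 3 libraries no relation between these values can be tested.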
